A study of Glycine max with 24 samples.

Results

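The aquaporin genes of soybean (Glycine max) described here, in leaves with and without soybean aphids, are 4: PIP1-6, PIP2-4, PIP2-6 and LOC100306092, whose synonym is GmTIP2;3. They were taken by name, as every probe set (several short probes that together report 1 transcript) whose single gene in the platform annotation was one of these 4. That gave 11 probe sets of the 37593 soybean probe sets on the array: 1 for PIP1-6, 2 for PIP2-4, 5 for PIP2-6 and 3 for TIP2;3, as LOC100306092 is called below. Transcripts were measured in leaves of the third trifoliate on 24 one-colour Affymetrix soybean arrays, 3 in each of 8 groups. The groups were, for the aphid-resistant cultivar LD05-16060 and then the aphid-susceptible cultivar SD01-76R, infested and uninfested leaves after 7 days and infested and uninfested leaves after 1 day. For infestation 30 aphids were put on a plant, 10 per leaflet with 21 or more adults among them, and each plant stood under its own net at 25 °C and 16 h of light. Aphids were taken off before the leaves were sampled. The labels do not say whether an array is 1 plant or several, so p-values measure the spread between arrays, which may be technical.

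Aquaporins are membrane channels that let water, and in some cases other small neutral molecules, cross a membrane down its gradient. PIP proteins sit in the plasma membrane and TIP proteins in the tonoplast, the membrane around the vacuole. In leaves they take part in moving water out of the veins and into and between the mesophyll cells, and aphids feed from the phloem sap within those veins. PIP2 proteins are efficient water channels on their own, whereas in maize PIP1 proteins need a PIP2 partner to reach the plasma membrane. TIP2 proteins of Arabidopsis carry ammonia as well as water.

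Values below are log2 intensities after quantile normalization, which gives every array the same distribution, with a median of 7.61 and a 5th percentile of 5.28. Because the deposited values carry no measure of background, the distance of a dim level from it is unknown. PIP2-6 was the brightest, at a mean of 12.16 over 24 arrays on GmaAffx.15945.1.A1_s_at and 10.84 on Gma.11130.2.S1_at. PIP2-4 averaged 11.15 on GmaAffx.78601.1.S1_s_at. PIP1-6, read by Gma.7447.1.S1_s_at alone, averaged 7.68, and TIP2;3 averaged 7.76 on Gma.11324.1.A1_s_at and 7.69 on Gma.11324.2.S1_a_at. Brightness on different probes does not rank the genes by amount of transcript. The other 5 probe sets were dim, with means between 5.47 and 6.75. Of these, GmaAffx.90620.1.S1_at of PIP2-4 lay under the 5th percentile on 3 arrays and Gma.11324.2.S1_at of TIP2;3 on 6 arrays. By the array's naming convention, names ending in _s_at hold probes shared with other transcripts, so signal from other close aquaporin copies cannot be separated there, and this holds for the brightest probe set of each of the 4 genes and for the dim GmaAffx.93381.1.S1_s_at of PIP2-6. No probe, promoter or protein sequence is shown, because none was among the sources used here.

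The arrays differed in technical measures that touch these genes. The 3' minus 5' signal, the log2 difference between probe sets at the 3' and 5' ends of 5 control transcripts, which is larger where labelled RNA is shorter, ran from 0.809 to 2.01. Its highest group mean, 1.51 ± 0.44 (SD, n = 3), was that of the uninfested susceptible group of day 1, and the other groups had means between 0.900 and 1.25. The highest 2 arrays were uninfested susceptible day 1 replicate 1, at 2.01, and infested resistant day 1 replicate 2, at 1.67. Chlorophyll a-b binding transcripts, which mark leaf mesophyll, were among the brightest on the array, with CAB3 at up to 14.73, while CA1, a carbonic anhydrase, was at 7.02. Glycinin and conglycinin, which mark seed, were between 4.92 and 5.65, while KTI-2, a trypsin inhibitor of the same list, was at 10.73. Nodule markers lay between 5.25 and 10.24, the brightest being UR2, a uricase.

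**Figure D1:**
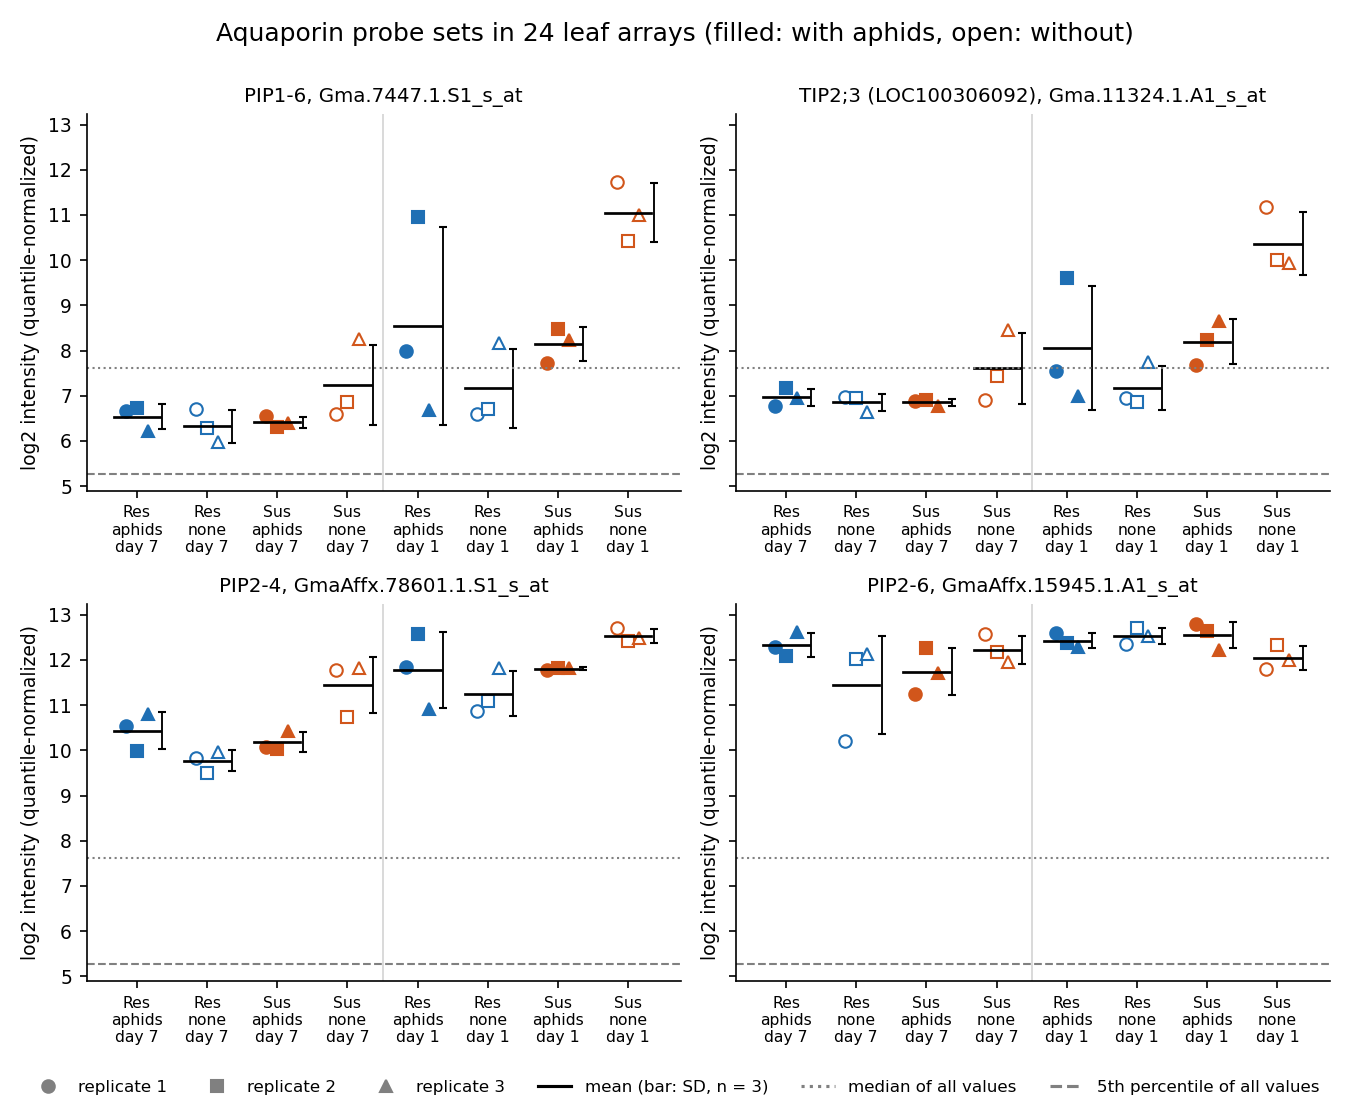
Log2 intensity (y axis) of the brightest probe set of each gene in 8 groups of 3 arrays (x axis; Res, resistant; Sus, susceptible; blue and orange for the cultivars, filled symbols with aphids). Horizontal bars are means with SD. PIP1-6 and TIP2;3 stand high in uninfested susceptible leaves of day 1 and on 1 of the 3 infested resistant arrays of day 1; PIP2-6 stays within 10.21 to 12.79.

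PIP1-6 had its highest values in uninfested susceptible leaves of day 1 and was near or under the array median in most other groups. On day 7 it read 6.67, 6.72 and 6.23 in infested resistant leaves, against 6.71, 6.29 and 5.97 in uninfested resistant leaves. The susceptible cultivar read 6.55, 6.30 and 6.39 with aphids on day 7, against 6.59, 6.86 and 8.25 without. All 6 resistant values of day 7 lay within a span of 1 log2 unit, and the 3 infested susceptible values lay just below the uninfested ones. On day 1 it read 7.99, 10.95 and 6.68 in infested resistant leaves, against 6.61, 6.71 and 8.17 in uninfested resistant leaves. The susceptible cultivar read 7.73, 8.48 and 8.23 with aphids on day 1, against 11.72, 10.42 and 11.00 without. The infested susceptible arrays of day 1 were therefore all below the uninfested ones, whereas in the resistant cultivar the groups overlapped and a single infested array, replicate 2, reached the level of uninfested susceptible leaves.

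TIP2;3 was likewise highest in uninfested susceptible leaves of day 1. On Gma.11324.1.A1_s_at it read 6.77, 7.17 and 6.94 in infested resistant leaves of day 7, against 6.98, 6.94 and 6.64 in uninfested ones. Infested susceptible leaves of day 7 read 6.89, 6.91 and 6.77, against 6.91, 7.45 and 8.46 in uninfested susceptible leaves. All but replicate 3 of the uninfested susceptible leaves lay at or under the array median. On day 1 it read 7.56, 9.61 and 7.00 in infested resistant leaves, against 6.94, 6.85 and 7.74 in uninfested resistant leaves. Infested susceptible leaves of day 1 read 7.67, 8.24 and 8.66, against 11.17, 9.998 and 9.93 in uninfested susceptible leaves. The uninfested susceptible arrays of day 1 lay above every other array in the series. Gma.11324.2.S1_a_at gave means of 8.01 ± 0.52 with aphids and 10.23 ± 0.67 without aphids in those susceptible leaves of day 1 (SD, n = 3 each).

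PIP1-6 and TIP2;3 fell with aphids in susceptible leaves of day 1, the comparison that asks what 1 day of infestation does in the cultivar that supports the aphid. PIP1-6 was 2.90 ± 0.70 log2 units lower (log2 difference -2.90, SE, n = 3 against 3; 7.45-fold; limma, adjusted p = 0.0287). TIP2;3 changed by -2.17 ± 0.50 (4.51-fold lower, limma adjusted p = 0.0252) and, on Gma.11324.2.S1_a_at, by -2.22 ± 0.51 (4.67-fold lower, limma adjusted p = 0.0258). These 3 were the member probe sets called, 3 of 11, where 5.01% of all probe sets were called and 3.29% were called lower. The other 2 genes were not: the bright PIP2-4 probe set read 11.77, 11.83 and 11.83 with aphids and 12.71, 12.42 and 12.48 without, a difference of -0.73 ± 0.34 (limma adjusted p = 0.189). Its infested arrays all lay below the uninfested ones. All 5 PIP2-6 probe sets lay above 0, between 0.23 and 0.54, and none was called. Groups did not overlap for 7 of 11 member probe sets, 5 lower and 2 higher, against 31% of all probe sets, 15.9% lower and 15.2% higher. The median over the 11 was -0.41 log2, beside 0.00459 over all probe sets.

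The same arrays carried other differences. Without the 2 arrays of highest 3' minus 5' signal, a choice made after seeing the data, the aphid difference in susceptible leaves of day 1 was -2.56 ± 0.48 for PIP1-6 (limma adjusted p = 0.0171) and -1.77 ± 0.35 for TIP2;3 on Gma.11324.1.A1_s_at (adjusted p = 0.0233). With the 3' minus 5' signal as a covariate it was -1.70 ± 0.57 for PIP1-6 (limma adjusted p = 0.304) and -1.25 ± 0.37 for TIP2;3 (adjusted p = 0.243), so the call was lost for both, as it was when the arrays were not scaled. Leaving out uninfested susceptible day 1 replicate 1 alone also ended both calls, at -2.56 (limma adjusted p = 0.205) and -1.77 (adjusted p = 0.198). Because the 3' minus 5' signal was itself highest in uninfested susceptible leaves of day 1, its part in the difference cannot be told apart from that of the group. Over 24 arrays PIP1-6 and the 3' minus 5' signal had Pearson's r = 0.662 and Spearman's rho = 0.397, and r was 0.305 without the 2 arrays farthest from the median signal. Taken as deviations from the group means, r with that signal was 0.71 for PIP1-6 and 0.778 for TIP2;3 on Gma.11324.1.A1_s_at.

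Some phloem markers differed between these groups as well. The mean of 11 sieve element occlusion (SEO) probe sets, which mark the phloem's conducting cells, was 6.36 ± 0.24 with aphids and 6.89 ± 0.45 without aphids in susceptible leaves of day 1 (SD, n = 3 each). In infested resistant leaves of day 1 it was 6.22 ± 0.51, against 5.88 ± 0.33 in uninfested ones. With SUT1, a sucrose transporter, added, 14 of 14 phloem probe sets lay below 0 for infested against uninfested susceptible leaves of day 1, and none of the 14 was called. Over 24 arrays the SEO mean had r = 0.888 (rho = 0.728) with PIP1-6, r = 0.909 (rho = 0.703) with TIP2;3 and r = 0.869 (rho = 0.843) with PIP2-4, but r = 0.195 (rho = 0.12) with PIP2-6. SUT1 of the same list did not go with them by day: in uninfested leaves it was called higher on day 7 than on day 1, on 2 of its 3 probe sets in the susceptible cultivar (0.80 and 0.85 log2) and on 3 of 3 in the resistant one (1.38, 1.46 and 1.10), comparisons in which PIP2-4 was lower. These are descriptions over arrays that share groups and RNA quality, and the part of the phloem share in the member differences was not tested. In whole leaves, fewer cells of a type and less RNA per cell cannot be told apart.

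**Figure D2:**
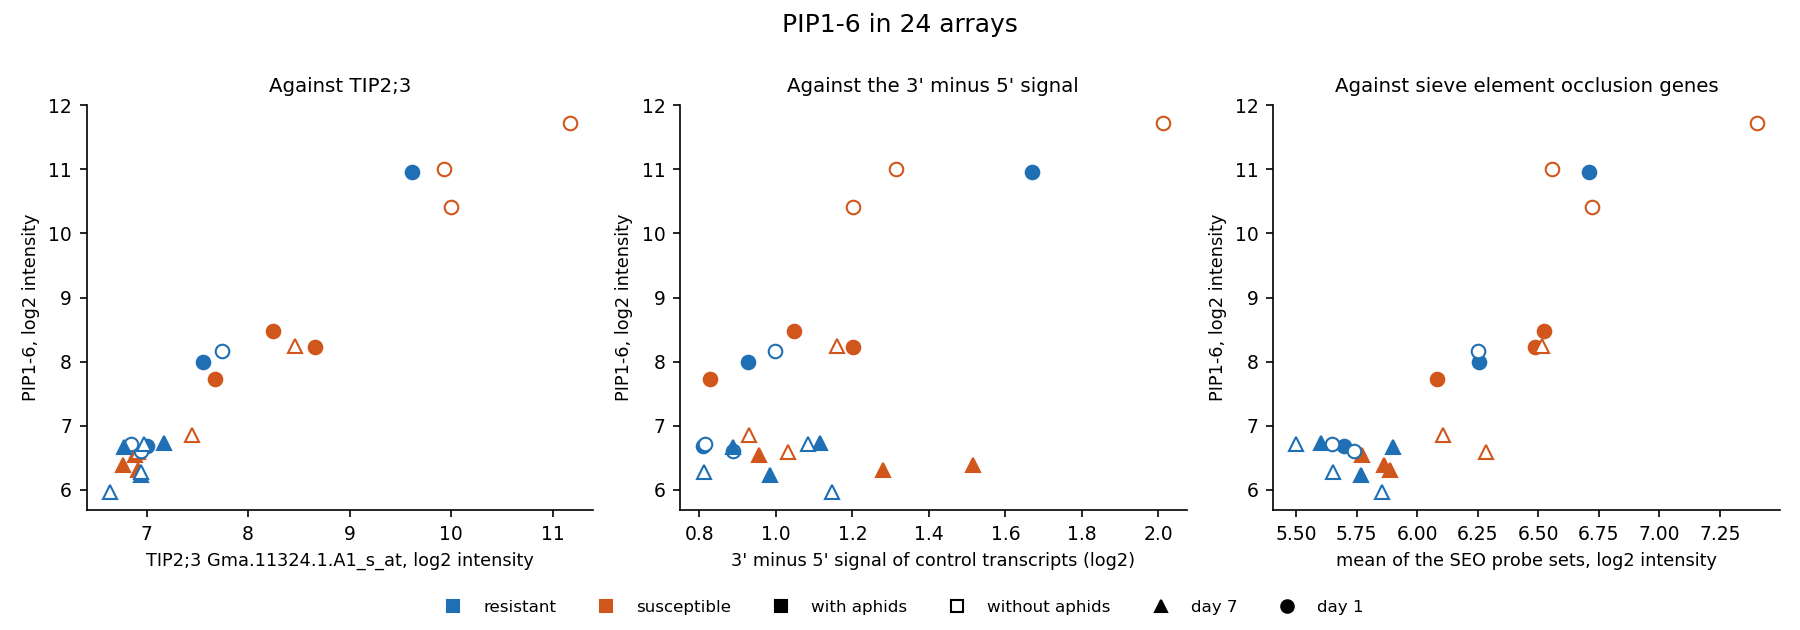
PIP1-6 log2 intensity (y axis) on each of 24 arrays against TIP2;3, the 3' minus 5' signal and the mean of 11 SEO probe sets (x axes, log2). Triangles are day 7 and circles day 1, blue resistant and orange susceptible, filled with aphids. The 4 arrays at 10.42 or above on PIP1-6 are the 3 uninfested susceptible arrays of day 1 and 1 infested resistant array; 2 infested susceptible arrays of day 7 have 3' minus 5' signals of 1.28 and 1.52 with PIP1-6 at 6.30 and 6.39.

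In resistant leaves of day 1 no member probe set was called (0 of 11 by limma, 0 of 11 at an unadjusted p under 0.05), where 0% of all probe sets were called and 7.62% had an unadjusted p under 0.05. PIP1-6 was at 8.54 ± 2.19 with aphids and 7.16 ± 0.88 without aphids (SD, n = 3 each), a difference of 1.38 ± 0.70 (limma adjusted p = 0.665). TIP2;3 differed by 0.88 ± 0.50 (adjusted p = 0.702) and PIP2-4 by 0.52 ± 0.34 (adjusted p = 0.741), both by limma. Apart from the high infested replicate 2, the infested PIP1-6 values of 7.99 and 6.68 lay within the uninfested range of 6.61 to 8.17, and no member's groups were separate (0 of 11, where 9.66% of all probe sets did not overlap).

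The aphid difference itself was set against the cultivar on day 1. The difference between cultivars in it, resistant minus susceptible, was 4.27 ± 0.99 for PIP1-6 (limma adjusted p = 0.0480) and 3.05 ± 0.70 for TIP2;3 on Gma.11324.1.A1_s_at (adjusted p = 0.0473). These 2 of 11 were called, where 0.886% of all probe sets were called and 0.633% called above 0. Gma.11324.2.S1_a_at gave 2.86 ± 0.73 (limma adjusted p = 0.0535). Both calls lay close to the threshold and neither held without the 2 arrays of highest 3' minus 5' signal, where the values were 2.73 ± 0.69 (limma adjusted p = 0.202) and 1.88 ± 0.50 (adjusted p = 0.244). The susceptible uninfested arrays of day 1 enter both this difference and the aphid difference, so the 2 are not separate evidence.

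**Figure D3:**
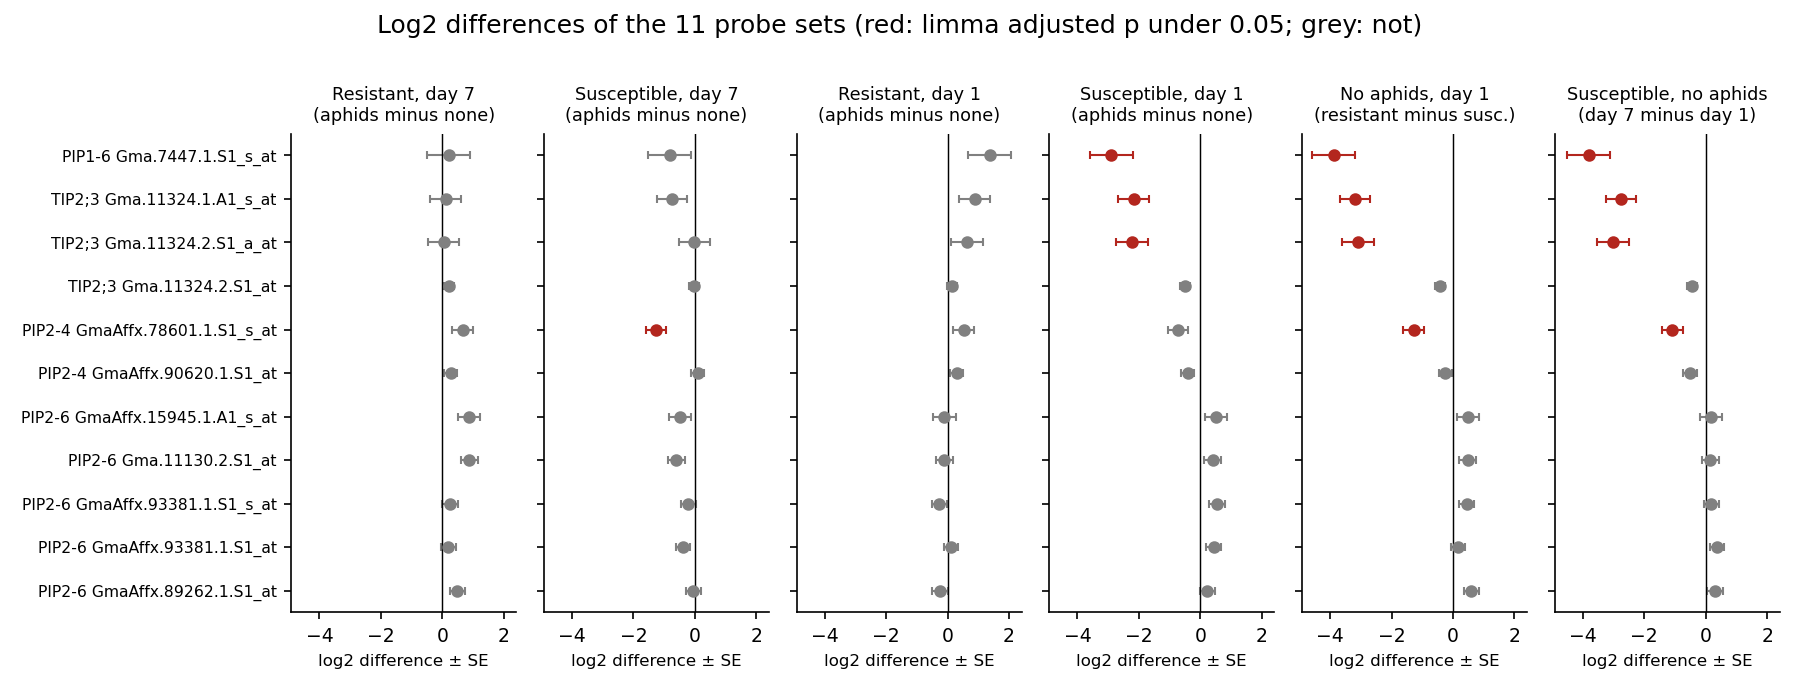
Log2 differences with SE (x axis) of the 11 member probe sets (rows) in 6 comparisons (panels; red, limma adjusted p under 0.05; grey, not). The PIP1-6 and 2 bright TIP2;3 probe sets are red and below 0 in the 3 panels that use uninfested susceptible leaves of day 1 as the group subtracted, PIP2-4 is red below 0 in 3 panels, and PIP2-6 is grey throughout.

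PIP2-4 was lower on day 7 than on day 1 in uninfested leaves of both cultivars, and lower in uninfested resistant than in uninfested susceptible leaves on both days. On day 7 the bright probe set read 10.53, 9.98 and 10.80 in infested resistant leaves, against 9.83, 9.51 and 9.97 in uninfested resistant leaves. Susceptible leaves of day 7 read 10.08, 10.03 and 10.43 with aphids, against 11.78, 10.74 and 11.82 without. The infested arrays were thus all above the uninfested ones in the resistant cultivar and all below them in the susceptible one. On day 1 it read 11.84, 12.58 and 10.92 in infested resistant leaves, against 10.87, 11.09 and 11.81 in uninfested resistant leaves, which overlap.

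With 7 days of aphids the bright PIP2-4 probe set fell in susceptible leaves, by 1.27 ± 0.34 log2 units (log2 difference -1.27, SE, n = 3 against 3, 2.41-fold lower, limma adjusted p = 0.0482). The dim PIP2-4 probe set, GmaAffx.90620.1.S1_at, did not: it read 5.59 ± 0.15 with aphids and 5.50 ± 0.23 without (SD, n = 3 each). The SEO mean was 5.84 (5.77 to 5.89) with aphids and 6.30 (6.11 to 6.51) without in the same leaves, and 11 of 14 phloem probe sets lay below 0 with none called. PIP2-4 was the only member called, 1 of 11, where 2.84% of all probe sets were called and 0.894% called lower. In resistant leaves the difference was 0.67 ± 0.34 (limma adjusted p = 0.9999). The difference between cultivars in the aphid difference was 1.94 ± 0.48 for PIP2-4 (limma adjusted p = 0.0611) and 1.49 ± 0.39 for PIP2-6 on Gma.11130.2.S1_at (adjusted p = 0.0736), so neither passed. Of 11 member probe sets 0 were called there, where 0.676% of all were, and 3 had an unadjusted p under 0.05, where 15.7% of all did. The susceptible day 7 call is close to the threshold: without scaling it was lost, and it held in 6 of 24 fits that each left out 1 array.

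On day 7 in resistant leaves 11 of 11 member probe sets lay above 0, with a median of 0.25, beside -0.0185 over all probe sets. These 11 belong to 4 genes, with 5 on PIP2-6, and are not separate observations. None was called by limma, where 0.00266% of all probe sets were called, and 2 of 11 had an unadjusted p under 0.05, against 2.85% of all. Those 2 were PIP2-6 on Gma.11130.2.S1_at, 0.88 ± 0.28, and on GmaAffx.15945.1.A1_s_at, 0.88 ± 0.36 (limma adjusted p = 0.9999 for both). Uninfested resistant day 7 replicate 1 was the lowest of its group on both, at 9.36 and 10.21. Of the same 11 in susceptible leaves of day 7, 10 lay below 0, all but the dim PIP2-4 probe set, with a median of -0.39, beside -0.0261 over all probe sets. That last count was 6 of 11 without scaling, where the median of all probe sets was 0.258.

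PIP2-6 ranged over 2.59 log2 units on its brightest probe set, against 5.75 for PIP1-6, 4.53 for TIP2;3 and 3.20 for PIP2-4 on theirs. On GmaAffx.15945.1.A1_s_at it read 12.30, 12.09 and 12.63 in infested resistant leaves of day 7, against 10.21, 12.02 and 12.14 in uninfested resistant leaves. The infested susceptible arrays of day 7 read 11.24, 12.27 and 11.71, against 12.57, 12.17 and 11.95 for the uninfested ones. A single array, uninfested resistant replicate 1, lay far below the others, and the groups overlapped in both cultivars. On day 1 group means were 12.42 ± 0.16 in infested and 12.53 ± 0.18 in uninfested resistant leaves, and 12.56 ± 0.30 in infested and 12.04 ± 0.27 in uninfested susceptible leaves (SD, n = 3 each). Its other bright probe set, Gma.11130.2.S1_at, correlated with it over 24 arrays (Pearson's r = 0.917, Spearman's rho = 0.915).

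Among uninfested leaves of day 1 the resistant cultivar had less PIP1-6, TIP2;3 and PIP2-4 than the susceptible one. PIP1-6 averaged 7.16 ± 0.88 in resistant and 11.05 ± 0.65 in susceptible leaves (SD, n = 3 each), a difference of -3.88 ± 0.70 (14.8-fold lower, limma adjusted p = 0.00172). TIP2;3 differed by -3.19 ± 0.50 (9.12-fold lower, limma adjusted p = 0.000773) and by -3.10 ± 0.51 on Gma.11324.2.S1_a_at (adjusted p = 0.00112). PIP2-4 averaged 11.26 ± 0.49 in resistant and 12.54 ± 0.15 in susceptible leaves, a difference of -1.28 ± 0.34 (2.43-fold lower, limma adjusted p = 0.0138). These were 4 of 11 called, where 18.7% of all probe sets were called and 9.79% called lower. Groups did not overlap for 8 of 11, 5 lower and 3 higher in resistant leaves, against 39.6% of all. The 3 higher were probe sets of PIP2-6, and none of them was called. The share of called members is above that of all probe sets by a margin that was not tested. Of the phloem probe sets 8 of 14 were called lower in the same comparison. PIP1-6 and both bright TIP2;3 probe sets remained called in 24 of 24 fits without 1 array. With the 3' minus 5' signal as a covariate both TIP2;3 values passed, while PIP1-6 was at -2.38 ± 0.61 (limma adjusted p = 0.0573) and PIP2-4 at -0.69 ± 0.34 (adjusted p = 0.314).

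On day 7 the cultivar difference among uninfested leaves was called for PIP2-4 alone, 1 of 11, where 2.28% of all probe sets were called and 0.918% called lower. It averaged 9.77 ± 0.24 in resistant and 11.45 ± 0.61 in susceptible leaves (SD, n = 3 each), a difference of -1.68 ± 0.34 (3.20-fold lower, limma adjusted p = 0.0148). PIP1-6 differed by -0.91 ± 0.70 (adjusted p = 0.541). In that comparison 3 of 8 mesophyll probe sets and 0 of 14 phloem probe sets were called lower. Of the 14 phloem probe sets 8 did not overlap, all lower in resistant leaves, and 7 had an unadjusted p under 0.05. The matching shares of all probe sets are not given here, so these counts do not set phloem apart from other probe sets. The SEO mean was 5.67 (5.50 to 5.86) in resistant leaves and 6.30 (6.11 to 6.51) in susceptible leaves, and the part of these markers in the PIP2-4 difference was not tested. Among infested leaves the cultivar difference was called for 0 of 11 on day 7 and 0 of 11 on day 1, where 0.16% and 0.138% of all probe sets were called. At an unadjusted p under 0.05 these were 0 and 1 of 11, against 5.39% and 5.64% of all. PIP1-6 differed there by 0.13 ± 0.70 on day 7 and 0.39 ± 0.70 on day 1.

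Uninfested leaves of day 7 and day 1 differed in these genes as well. In the susceptible cultivar PIP1-6 averaged 7.23 ± 0.89 on day 7 and 11.05 ± 0.65 on day 1 (SD, n = 3 each), a difference of -3.81 ± 0.70 (14.1-fold lower, limma adjusted p = 0.00563). TIP2;3 averaged 7.61 ± 0.78 on day 7 and 10.37 ± 0.70 on day 1, a difference of -2.76 ± 0.50 (limma adjusted p = 0.00513), and Gma.11324.2.S1_a_at differed by -3.01 ± 0.51 (adjusted p = 0.00433). PIP2-4 differed by -1.09 ± 0.34 (limma adjusted p = 0.0453), a call that was lost without the 2 arrays of highest 3' minus 5' signal (adjusted p = 0.101). These were 4 of 11 called, where 10.5% of all probe sets were called and 5.28% called lower. In the resistant cultivar PIP2-4 averaged 9.77 ± 0.24 on day 7 and 11.26 ± 0.49 on day 1, a difference of -1.49 ± 0.34 (2.81-fold lower, limma adjusted p = 0.0171). PIP2-6 on Gma.11130.2.S1_at averaged 10.03 on day 7 and 11.29 on day 1, a difference of -1.26 ± 0.28 (2.40-fold lower, limma adjusted p = 0.0140). These were 2 of 11, where 3.91% of all probe sets were called and 1.91% called lower. The PIP2-6 call was lost without uninfested resistant day 7 replicate 1, at -0.93 (limma adjusted p = 0.103), and without uninfested resistant day 1 replicate 2, at -1.15 (adjusted p = 0.0883). In the same comparison 3 of 8 mesophyll probe sets were called lower, LOC547819, a chlorophyll a-b binding protein, by -1.25 and -1.18 and CAB3 by -0.57, while SUT1 was called higher; their part in the PIP2-4 and PIP2-6 differences was not tested. PIP1-6 differed by -0.84 ± 0.70 in the resistant cultivar (adjusted p = 0.603). The day difference of the aphid difference was called for 0 of 11 in either cultivar, where 0% of all probe sets were called, and 1 of 11 in resistant and 5 of 11 in susceptible leaves had an unadjusted p under 0.05, against 2.75% and 15.8% of all.

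In order of group mean, PIP1-6 and TIP2;3 began with uninfested susceptible leaves of day 1, followed by infested resistant and infested susceptible leaves of day 1 for PIP1-6 and by the same groups in the other order for TIP2;3. The ranges of neighbouring groups overlapped at all 7 steps for PIP1-6 and, for TIP2;3, at all but the first. PIP2-4 began with uninfested susceptible leaves of day 1 and ended with infested susceptible and uninfested resistant leaves of day 7, and neighbours did not overlap between ranks 1 and 2, 5 and 6, and 7 and 8. All 7 steps of PIP2-6 overlapped. PIP1-6 and TIP2;3 tracked each other over the 24 arrays (Pearson's r = 0.977, Spearman's rho = 0.903, r = 0.933 within groups). PIP1-6 and PIP2-6 did not (r = 0.0638, rho = 0.0661).

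Of 1125 informatively named genes, those most like PIP1-6 over 24 arrays were BZIP50, a bZIP transcription factor (r = 0.969, rho = 0.789), ADR11 (r = 0.956, rho = 0.772) and LRK1 (r = 0.949, rho = 0.869). The same 3 genes led for TIP2;3, at r = 0.977, 0.971 and 0.965. PIP2-4 was most like SBPRP, a proline-rich protein (r = 0.937, rho = 0.946), FAD8.2, a chloroplast fatty acid desaturase (r = 0.93, rho = 0.93), and CYP76O2, a cytochrome P450 (r = 0.929, rho = 0.928). PIP2-6 was most like PAL2.1, a phenylalanine ammonia-lyase (r = 0.875, rho = 0.779), HIDH, an isoflavone synthesis enzyme (r = 0.866, rho = 0.733), and WRKY52, a WRKY transcription factor (r = 0.854, rho = 0.823). All arrays of a group share cultivar, aphids and day, and correlations are given without tests.

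Other aquaporins on the array numbered 34 probe sets of 19 genes: 11 PIP, 2 TIP, 3 NIP and 3 SIP genes, the last being small intrinsic proteins of internal membranes. With aphids on susceptible leaves of day 1, 0 were called higher and 3 lower, where 3.29% of all probe sets were called lower: PIP1-4 by -1.04 ± 0.25 (limma adjusted p = 0.0270), SPCP1, annotated as a TIP1, by -1.36 ± 0.35 (adjusted p = 0.0342) and SIP1-6 by -1.41 ± 0.37 (adjusted p = 0.0374). Their median was -0.31, beside -0.41 for the 4 genes' probe sets. In the other 3 aphid comparisons none of the 34 was called by limma. There, at an unadjusted p under 0.05, 1 of 34 was found in resistant leaves of day 1, against 7.62% of all probe sets. In resistant leaves of day 7 it was 0 of 34, against 2.85% of all. In susceptible leaves of day 7 it was 9 of 34, and the matching share of all probe sets is not given here. The 2 genes with the smallest p were SPCP1 (-1.88 ± 0.56, adjusted p = 0.0746) and PIP1-1 (-0.57 ± 0.17, adjusted p = 0.0754) in susceptible leaves of day 7, and PIP2-13 (0.78 ± 0.30, adjusted p = 0.623) and SIP1-6 (1.05 ± 0.55, adjusted p = 0.673) in resistant leaves of day 1, all by limma. In resistant leaves of day 7 they were SPCP1 (0.28 ± 0.16) and LOC547794, a TIP1 (-0.25 ± 0.19), each with a limma adjusted p of 0.9999.

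Among uninfested leaves of day 1, 13 of the 34 probe sets, of 8 genes, were called lower in the resistant cultivar and 0 higher, where 9.79% of all probe sets were called lower: PIP1-1, PIP1-4, PIP2-1, PIP2-9, PIP2-13, SPCP1, NIP1-8 and SIP1-6, with SIP1-6 at -2.27 ± 0.55 and SPCP1 at -2.25 ± 0.56 on their largest. That count called lower was 0 with the 3' minus 5' covariate, 6 without scaling and 8 without the 2 arrays of highest 3' minus 5' signal. After median centring it was 14. On day 7 none was called. Not every aquaporin followed PIP1-6 over time. In uninfested resistant leaves 6 of 34 were called higher on day 7 than on day 1, where 3.91% of all probe sets were called in either direction: LOC547794 by 2.99 ± 0.52 on its _s_at probe set (limma adjusted p = 0.00369) and 2.59 ± 0.52 on the other, PIP2-9 by 2.16 ± 0.37 (adjusted p = 0.00360), PIP2-13 by 1.85 ± 0.30 and 1.72 ± 0.32, and PIP2-10 by 1.49 ± 0.28. PIP2-8 was the 1 gene called lower there, on 2 probe sets (-0.75 ± 0.17 and -0.88 ± 0.21). In uninfested susceptible leaves PIP2-10 was called higher (1.16 ± 0.28) and 5 probe sets lower, of PIP2-8, SIP1-6, PIP2-1 and PIP1-4. Of all probe sets 10.5% were called there and 5.28% called lower. With the 3' minus 5' covariate, and also without scaling, 0 of the 34 were called higher and 0 lower in that comparison.

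**Figure D4:**
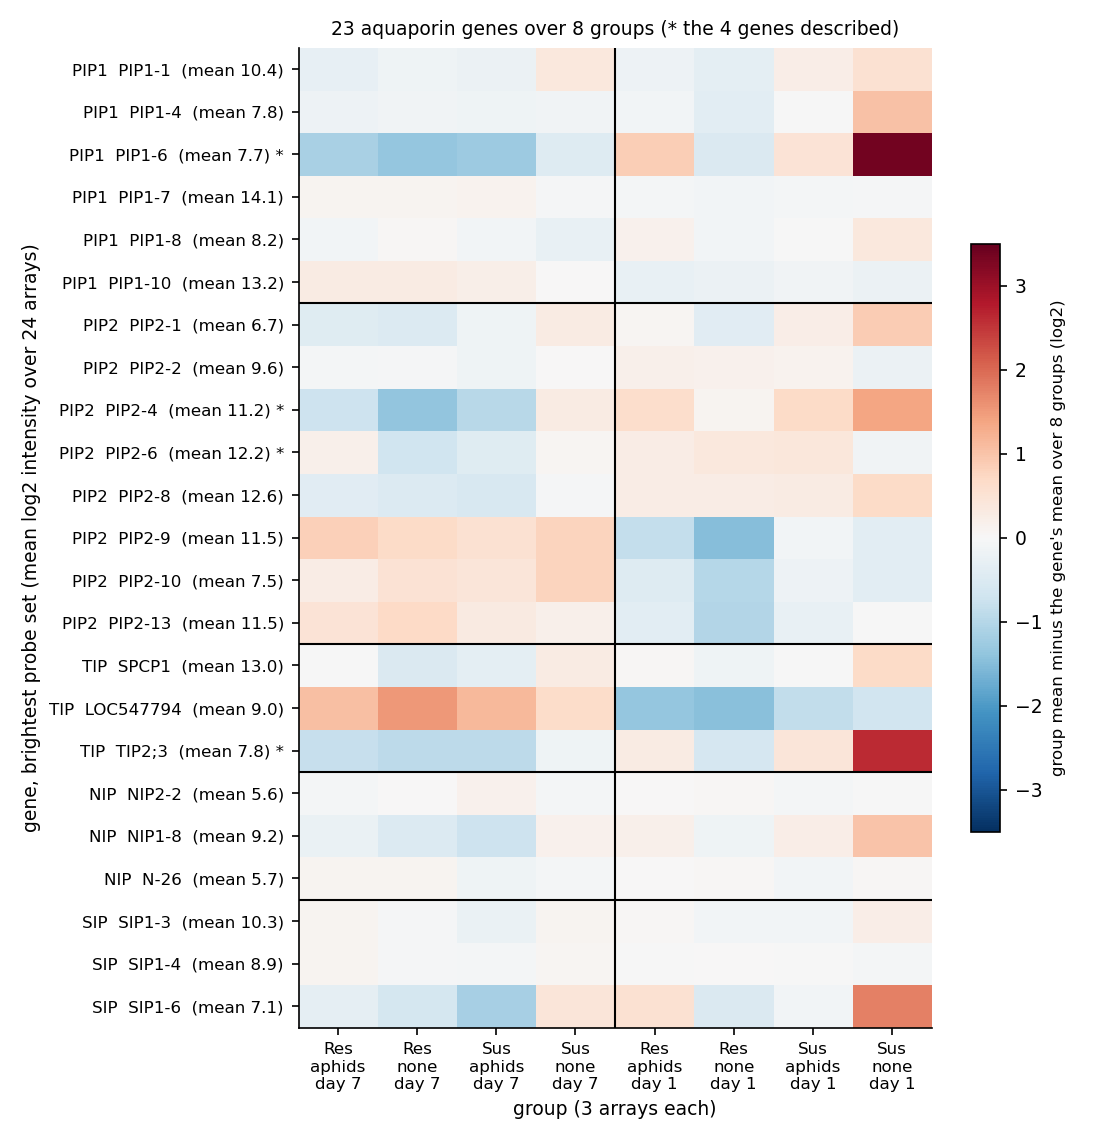
Group means of 23 aquaporin genes (rows, brightest probe set each, by family; * marks the 4 genes described) minus the gene's mean over the 8 groups, in log2 (colour), for the 8 groups of 3 arrays (columns). Uninfested susceptible leaves of day 1 are red for PIP1-6, TIP2;3, SIP1-6 and PIP2-4, and LOC547794, PIP2-9 and PIP2-13 are higher on day 7.

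Related lists were small on this array. Expansins and xyloglucan endotransglucosylases, which loosen cell walls for growth, had 7 probe sets of 5 genes. With aphids on susceptible leaves of day 7 all 3 probe sets of EXP2 were called lower, between -1.48 and -2.04, where 0.894% of all probe sets were. The bright PIP2-4 probe set fell in the same comparison. In resistant leaves of day 7 none of the 7 was called, where 0.00266% of all were. Dehydrins and abscisic acid genes had 6 probe sets of 5 genes, of which MAT1, a maturation protein (4.79 ± 1.16, limma adjusted p = 0.0297), and BZIP1, an abscisic acid response factor (0.88 ± 0.20, adjusted p = 0.0248), rose there. Chlorophyll a-b binding transcripts fell with aphids in susceptible leaves of day 7 as well, 3 of 8 mesophyll probe sets being called lower. Their part in the PIP2-4 difference was not tested.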

How the data were processed

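The table the submitters deposited held log2 intensities of 24 arrays, 37593 soybean and 60 control probe sets. Per the submitters' processing notes RMA, GCRMA and limma were used, with no role, order or version given. The sources used here do not say how probes were turned into 1 value. Taken back to the linear scale, 99.61% of the deposited values came within 0.01 of a whole number. The medians of the arrays lay between 7.00 and 8.04. No 2 columns were identical (0 pairs, highest correlation 0.9908).

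Soybean probe sets were quantile-normalized (R 4.3.3, limma 3.58.1), 8 group means were fitted over all 24 arrays, and p-values were adjusted by Benjamini-Hochberg over all 37593 probe sets in each of 14 contrasts, at a threshold of 0.05. Prior and residual degrees of freedom were 3.65 and 16. No counts exist, and the number of arrays limits the precision. The members and lists were chosen with earlier results of these data known. Genes came from the platform annotation, in which 8677 probe sets had 1 gene. Named genes are all member probe sets, other aquaporins that passed plus the 2 genes with the smallest p in each aphid comparison, and the 3 genes most correlated with each member. Lists of phloem, mesophyll, nodule and seed markers, expansins and xyloglucan endotransglucosylases, and dehydrins and abscisic acid genes were counted. Lists of proton pumps, xylem and epidermis had 0 probe sets by name. Alternatives were other scalings, normexp with an offset of 50, brighter probe sets alone, control probe sets kept in, a trended robust variance, a 3' minus 5' covariate, a replicate block, a contrast's own groups, and leaving out arrays. Over 84 pairs of equally numbered arrays from different groups, deviations from the group means had correlations between -0.499 and 0.457, and the numbers were not taken to pair arrays.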

Additional observations from a re-analysis of the deposited data

Results flagged for a closer look

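The aphid difference on day 1 was unlike between cultivars for PIP1-6, by 4.27 ± 0.99 log2 units on Gma.7447.1.S1_s_at, and for TIP2;3 (LOC100306092), by 3.05 ± 0.70 on Gma.11324.1.A1_s_at (resistant minus susceptible, SE, n = 3 per group; limma adjusted p = 0.0480 and 0.0473). The mean aphid difference was above 0 in resistant leaves (1.38 and 0.88, neither called) and below 0 in susceptible leaves (-2.90 and -2.17, both called). The PIP1-6 call held in 4 of 24 fits without 1 array, those without uninfested susceptible day 1 replicate 2, uninfested susceptible day 7 replicate 3, infested resistant day 1 replicate 3 or uninfested resistant day 1 replicate 3. The TIP2;3 call held in 5 of 24, those 4 and the fit without uninfested susceptible day 1 replicate 3. Without infested resistant day 1 replicate 2 the differences were 3.07 (limma adjusted p = 0.0948) and 2.28 (adjusted p = 0.108).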

How the results depend on the processing

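None of 46 single member results (unadjusted p under 0.05) reversed in the 10 settings other than leaving out 1 array. In the fits without 1 array only the 17 called results were checked, and none reversed. Counts of member probe sets called changed by over 1.5 times, or to or from 0, in the settings below, and smaller changes of count are not listed. For infested against uninfested susceptible leaves of day 1, 3 called, the count was 0 without scaling and 0 with the 3' minus 5' covariate. For day 7, 1 called, it was 0 without scaling, with normexp, with a trended robust variance, with the replicate block and in the contrast's own groups, and 2 with the covariate. For the cultivar difference in the aphid difference of day 1, 2 called, it was 0 without scaling, among brighter probe sets, with a trended robust variance, the covariate, the replicate block, the contrast's own groups or the 2 arrays of highest 3' minus 5' signal left out, a setting chosen after seeing the data. For that of day 7, 0 called, it was 1 with the covariate and 1 without those 2 arrays. For uninfested leaves, the cultivar difference of day 1, 4 called, was 2 with the covariate. In the contrast's own groups that of day 7, 1 called, was 0, and the day difference was 0 in susceptible leaves, 4 called, and 1 in resistant leaves, 2 called. The PIP2-4 day call in susceptible leaves was also lost without scaling, with the covariate and without those 2 arrays, where the count changed less. The replicate block moved no other count by over 1.5 times; 44 of 84 replicate pairs had a correlation over 0.1.

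With 1 array left out the counts ran from 0 to 4 and 0 to 1 for susceptible leaves of day 1 and day 7, 0 to 5 and 0 to 1 for the cultivar difference in the aphid difference, 3 to 5 and 0 to 2 for uninfested cultivars, and 3 to 5 and 0 to 3 for the day difference in susceptible and resistant leaves; the other 6 contrasts stayed at 0. The PIP1-6 call in susceptible leaves of day 1 was lost without any infested array (-2.68 to -3.06) or uninfested replicate 1 or 3 (-2.56 and -2.92), and the TIP2;3 call without infested replicate 1 or 2 (-1.91 and -2.20) or uninfested replicate 1 (-1.77). The PIP2-4 call in susceptible leaves of day 7 held only without uninfested susceptible day 7 replicate 2, infested resistant day 1 replicate 2 or 3, uninfested resistant day 1 replicate 3, infested resistant day 7 replicate 2 or uninfested resistant day 7 replicate 1, with values between -1.62 and -1.08 over the 24 fits. Its uninfested cultivar call was lost on day 1 without susceptible replicate 1 (-1.19) or resistant replicate 1 (-1.08) or 2 (-1.20), and on day 7 without susceptible replicate 1 (-1.51) or 3 (-1.49) or resistant replicate 1 (-1.71). Its day call in susceptible leaves held in 9 of 24 fits (-1.28 to -0.74 over the 24), those without infested susceptible day 7 replicate 2, uninfested susceptible day 7 replicate 3, infested resistant day 1 replicate 2 or 3, uninfested resistant day 1 replicate 1 or 3, infested resistant day 7 replicate 2 or 3, or uninfested resistant day 7 replicate 1. In resistant leaves it was lost without uninfested day 1 replicate 2 or 3 or uninfested day 7 replicate 1 or 2. The cause was not tested.

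Without scaling the median of all probe sets was 0.258 in susceptible leaves of day 7, with 2116 called higher and 21 lower, against 731 and 336 in the normalized values and 802 and 726 after median centring. In susceptible leaves of day 1 the calls were 648 higher and 1235 lower, and 105 and 46 without scaling. The 3 other aquaporin calls in susceptible leaves of day 1 were 0 without scaling, with the covariate and without the 2 arrays.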
